A study of Drosophila melanogaster with 30 samples.

Results

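The comparison described here sets adult virgin male Drosophila melanogaster that had poor food in both of the last 2 generations against males that had rich food in both. The flies of the group labelled F0-Poor_F1-Poor are written P-P below: their parents (F0) and they themselves (F1) developed on poor medium. Their counterparts belong to the group labelled F0-Rich_F1-Rich, written R-R: parents and sons developed on rich medium. The members were chosen by title, 3 arrays of each group, so 6 of the 30 arrays of the series, with all 15309 probe sets of the array. A fly's own food and its parents' food differ together in this comparison, so it cannot by itself assign a difference to one of them. All flies came from a laboratory stock founded from field-caught flies and were frozen directly, per the labels' protocols. RNA was biotin-labelled and hybridised to Affymetrix Drosophila Gene 1.0 arrays. The other 8 groups are named in the same way, with 1 letter for the food of each generation and the fly's own food last (R-P, P-R, P, R, P-R-P, P-R-R, R-R-P and R-R-R). No source used here gives the composition of the foods or the number of flies per sample. Nor do the labels say whether the 3 arrays of a group stand for separate cultures, so the p-values speak of the spread among arrays, which may be technical.

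As background, a fly larva eats continuously and stores protein and fat that the adult is built from, and its diet sets growth rate and body size. Adult flies use cytochrome P450 enzymes, glutathione S-transferases, UDP-glycosyltransferases and aldehyde oxidases, mostly in gut, Malpighian tubule and fat body, to break down plant and microbial compounds taken up with food. The adult cuticle is made of chitin and cuticle proteins and is hardened by tyrosine-derived compounds, and its deposition goes on after the adult has emerged, while larval storage protein is used up.

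The values are the authors' deposited GCRMA values, 1 per probe set and array, taken as log2 values. Their base is not stated, and with natural logarithms every difference given here would be 1.44 times larger. The levels of one gene are compared between arrays, never with those of another gene. Array medians of all 30 arrays lay between 0.82 and 0.94. Within P-P the 3 arrays correlated at r of 0.983 to 0.985 across probe sets, and within R-R at 0.980 to 0.985, where replicates 1 and 3 were the closest pair (mean absolute difference 0.214, against 0.227 and 0.240 for the pairs with replicate 2). Across all probe sets the median SD between replicates was 0.15 in either group. The testis genes betaTub85D, Mst87F and dj (4.84 to 5.94) and the accessory gland genes Acp36DE and SP (7.29 to 8.62) were strongly expressed on all 6 arrays, while the testis genes can and aly, which encode meiotic arrest factors, and Acp26Aa read low on them (-0.02 to 1.02). The ovary and yolk list, a check for female tissue, averaged 0.451 to 0.481 on P-P arrays and 0.450 to 0.468 on R-R arrays, so the ovary transcripts of 2 arrays in other groups (replicate 2 of R-P and of P-R-R) were not seen here. In bulk RNA, fewer cells of a type and less RNA per cell cannot be told apart.

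Replicates 1 and 3 of R-R stood apart from replicate 2 and from the rest of the series in genes of the body surface and its stores. The cuticle and chitin list of 138 genes averaged 0.901, 0.874 and 0.859 on the P-P arrays. On the R-R arrays it averaged 0.569 and 0.552 (replicates 1 and 3) and 0.827 (replicate 2), and it spanned 0.677 to 0.899 on the 24 arrays of the other groups. The larval storage list of 3 genes averaged 3.81 to 3.88 on P-P arrays. On R-R replicates 1, 2 and 3 it averaged 1.77, 3.12 and 1.69, and on the 24 others 2.87 to 4.91. Flight and body muscle genes (20) averaged 5.93 to 5.96 on P-P arrays, against 5.33, 5.85 and 5.56 on R-R replicates 1, 2 and 3, and 5.44 to 6.07 on the 24 others. For muscle, then, only replicate 1 lay below the 24 others. The P-P arrays thus lay close together for these lists, while the R-R arrays were split. Results are therefore given with all arrays and without replicates 1 and 3 of R-R. Without them R-R has 1 array, which is assumed to vary like the arrays of the other groups.

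**Figure D1:**
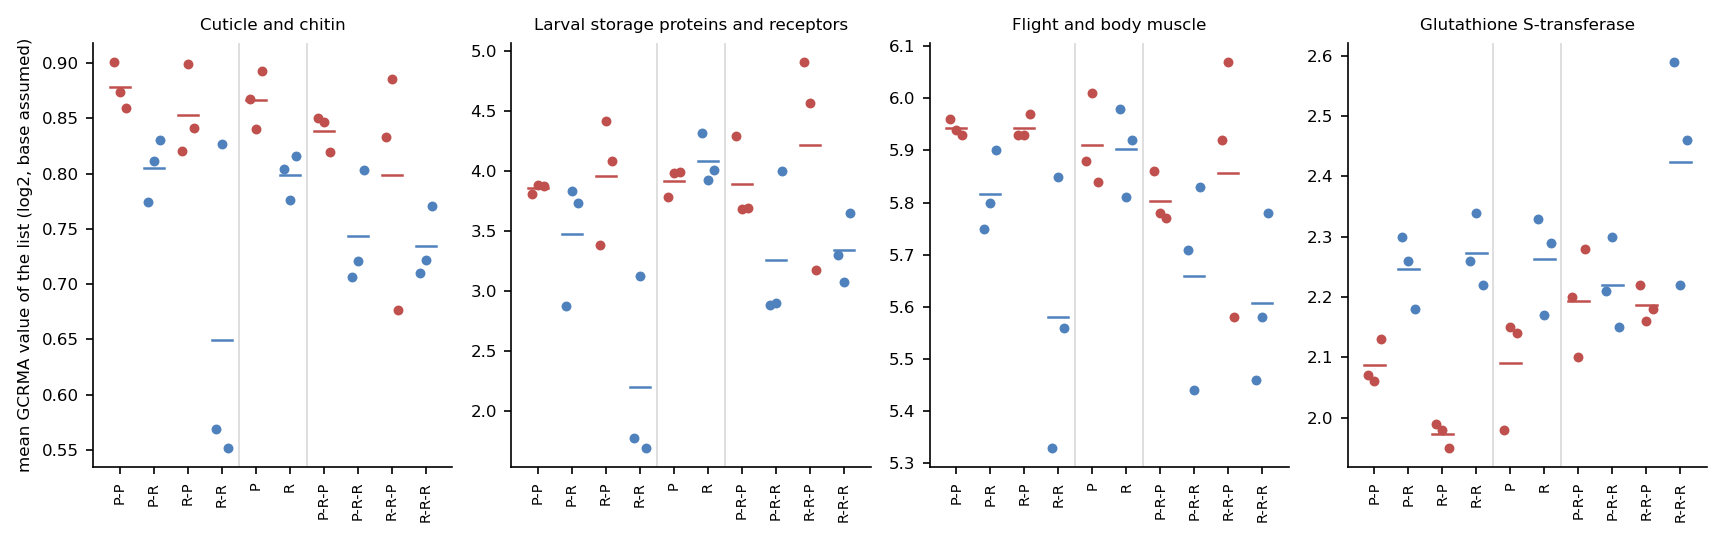
Mean deposited value of 4 gene lists on each of the 30 arrays (points) with group means (lines), by diet history on the x axis, in red for own food poor and blue for own food rich. In the cuticle and storage panels R-R replicates 1 and 3 lie below all other arrays, at 0.569 and 0.552 for cuticle genes, while the glutathione S-transferase panel shows P-P at 2.06 to 2.13 and R-R at 2.22 to 2.34.

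With all arrays, 36 probe sets rose and 29 fell in P-P against R-R, at adjusted p under 0.05 in limma with Benjamini-Hochberg adjustment over all probe sets. These are 0.235 and 0.189 percent of the 15309 tested, and 1218 had an unadjusted p under 0.05 against 765 by chance. Centring each array on its median called 59 higher and 31 lower. Falls ran from 0.52 to 2.97 in size and rises from 0.53 to 3.21, with 19 of each at 1 or more on the log2 scale. On every called probe set the 3 P-P arrays and the 3 R-R arrays did not overlap, which was also so, called or not, for 6.26 percent of all probe sets upward and 7.1 percent downward. Without replicates 1 and 3 of R-R, 6 rose and 7 fell (0.0392 and 0.0457 percent, together 0.0849 percent), and 8 of these 13 were among the 65. Because the groups did not overlap on the 65, these had to keep their sign there, but their sizes did not hold equally. The median of the 29 falls was -1.15 with all arrays and -1.02 without the pair, and 13 falls became larger. The median of the 36 rises was 1.07 with all arrays and 0.65 without, and 16 rises lost more of their size than they kept. Of the 36 rises, replicate 2 of R-R was the nearest to P-P of the R-R arrays in 27, against 14 of the 29 falls, and over all probe sets it was the highest of the 3 in 30.7 percent and the lowest in 37.1 percent. Single R-R arrays moved the counts further: 8 rose and 14 fell without replicate 1, 14 and 15 without replicate 3, and 78 and 39 without replicate 2. Leaving out 1 P-P array gave 35 to 42 calls. Of the 39 genes named by rule, 14 were called whichever single array of the 6 was left out, namely the falls of CG16898, Cyp6d2, Arc1, CG3285, AOX1, CG8620, Apoltp, CG33301, Rab9Db and Pdp1 and the rises of CG17242, CG16704, ple and Lsp2. The others each lost the call without at least 1 array. Their direction could not change in these fits, since the groups did not overlap.

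**Figure D2:**
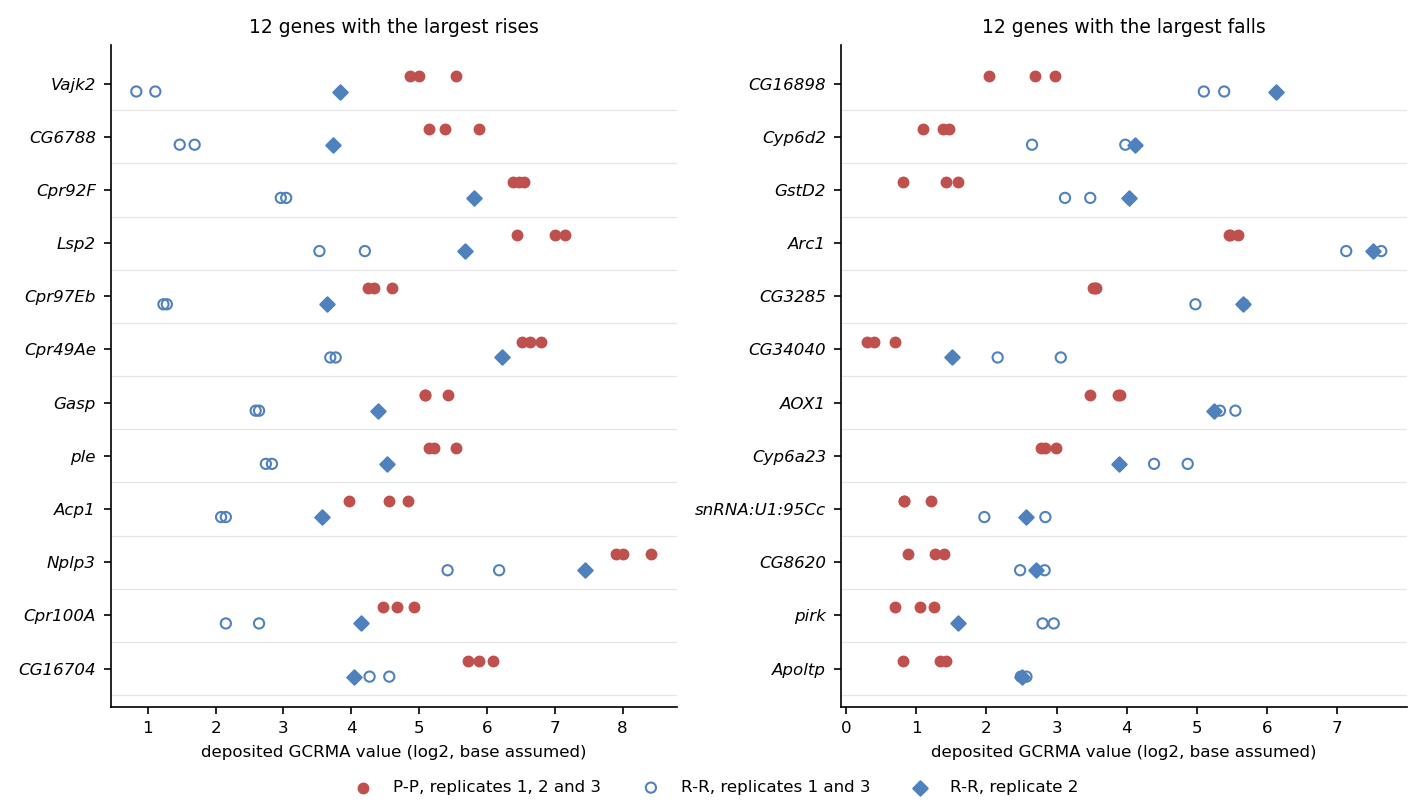
Deposited values on the 3 P-P arrays (red) and the 3 R-R arrays (blue) for the 12 genes with the largest rises (left) and the 12 with the largest falls (right); the x axis is the GCRMA value on an assumed log2 scale. For most rises replicate 2 of R-R (diamond) lies between replicates 1 and 3 (open circles) and P-P, as for Vajk2 at 3.84 against 0.83 and 1.11, while for falls such as AOX1 and Apoltp the 3 R-R arrays lie together.

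The largest called falls were those of CG16898 and of the detoxification genes Cyp6d2 and GstD2. CG16898, of the ecdysteroid kinase-like family, which has been linked to detoxification, had 2.69, 2.04 and 2.98 on the P-P arrays and 5.39, 6.13 and 5.10 on the R-R arrays. The groups were far apart, with no R-R array below 5.10, and the gene fell by 2.97 ± 0.27 (standard error of limma, adjusted p = 5.03e-07). With replicate 2 as the only R-R array it fell by 3.56 ± 0.36 (adjusted p = 9.34e-06). Cyp6d2, a cytochrome P450 gene, had 1.46, 1.38 and 1.10 in P-P, against 3.98, 4.12 and 2.65 in R-R. All P-P arrays were low and the third R-R array lay between them and the other R-R arrays. Cyp6d2 fell by 2.27 ± 0.28 (adjusted p = 7.29e-05), and by 2.81 ± 0.32 without the pair (adjusted p = 4.83e-05). AOX1, which encodes an aldehyde oxidase, had 3.88, 3.90 and 3.47 in P-P, against 5.55, 5.25 and 5.33 in R-R. Each group kept together, and AOX1 fell by 1.63 ± 0.17 (adjusted p = 5.45e-06), and by 1.5 ± 0.25 without the pair (adjusted p = 0.012). Mocs1, chosen after its values were seen because its product helps make the molybdenum cofactor that aldehyde oxidases carry, fell by 1.18 to 0.71 in P-P, against 1.89 in R-R (adjusted p = 0.0103), a call that ended without the pair (-1.14, adjusted p = 0.338).

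Few members of each detoxification family were called, though the share over all probe sets was also small. With all arrays 0.189 percent of all probe sets were called lower and 0.235 percent higher. AOX1 was the only one called of 20 further detoxification genes. Of 80 cytochrome P450 genes 2 fell and 0 rose in limma, with a list median of -0.03 beside -0.01 over all probe sets. The second was Cyp6a23, with 2.99, 2.84 and 2.78 in P-P, against 4.87, 3.89 and 4.39 in R-R (-1.51 ± 0.28, adjusted p = 0.0074, and -1.02, adjusted p = 0.763, without the pair). Cyp6g1, a gene known for insecticide resistance, missed the threshold at -1.05 ± 0.29 (adjusted p = 0.146). Of 35 glutathione S-transferase genes 2 fell and 0 rose (median -0.06). GstD2 had 1.43, 1.60 and 0.81 in P-P, against 3.48, 4.03 and 3.12 in R-R, a difference of -2.26 ± 0.48 (adjusted p = 0.0237), and GstD1 differed by -0.52 ± 0.11 (adjusted p = 0.022). Both missed the threshold without the pair (adjusted p = 0.24 and 0.362), although neither difference shrank (-2.75 and -0.56), and the GstD2 call also ended whichever single one of the 6 arrays was left out. GstD5 (-1.40, adjusted p = 0.154) and GstE7 (-0.91, adjusted p = 0.358) were not called. GstD genes are close relatives, and probes that match several of them could not be checked here. Of 35 UDP-glycosyltransferase genes 0 were called in limma with all arrays; Ugt37A3 stood lowest at -2.28 ± 0.79 (adjusted p = 0.335) with means of 0.85 in P-P and 3.13 in R-R.

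Besides CG16898, 3 more ecdysteroid kinase-like genes fell, out of 33 measured in a list written after the values were seen. CG33301 fell by 1.26 ± 0.23 (adjusted p = 0.00733), CG33511 by 0.97 ± 0.21 (adjusted p = 0.0349) and CG13659 by 0.91 ± 0.19 (adjusted p = 0.022). CG33301 had 1.48 to 1.71 in P-P, against 2.61 to 3.15 in R-R, and its difference was -1.59 without the pair (adjusted p = 0.0589), where the other two stood at -0.88 and -1.09 (adjusted p = 0.739 and 0.242). Of the whole list 4 fell and 0 rose, with a median of -0.17, where 0.189 percent of all probe sets fell.

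The further falls named here were in genes of different kinds. CG3285, of the sugar transporter family, had 3.56, 3.52 and 3.55 in P-P, against 4.98, 5.66 and 5.67 in R-R (-1.89 ± 0.21, adjusted p = 9.62e-06). The P-P arrays read almost the same, and the fall was as large without the pair (-2.12 ± 0.28, adjusted p = 0.000471). Arc1, whose protein forms virus-like capsids in neurons, had 5.58, 5.47 and 5.46 in P-P, against 7.63, 7.51 and 7.13 in R-R (-1.92 ± 0.29, adjusted p = 0.000949, and -2.01, adjusted p = 0.0644, without the pair). Apoltp, which encodes a lipid transfer particle apolipoprotein, had 1.42, 1.34 and 0.81 in P-P, against 2.49, 2.51 and 2.57 in R-R. The R-R arrays lay close together, and the difference of -1.33 ± 0.19 (adjusted p = 0.000329) was -1.32 without the pair, where it missed the threshold (adjusted p = 0.0589). Apoltp was the only called member of 40 lipid metabolism and transport genes, whose median was -0.03.

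CG8620 had 0.88, 1.40 and 1.27 in P-P, against 2.83, 2.71 and 2.48 in R-R, and fell by 1.49 ± 0.20 with all arrays (adjusted p = 0.000221) and by 1.53 ± 0.29 without the pair (adjusted p = 0.0379). It was 1 of the 5 falls that passed in both, with CG16898, Cyp6d2, CG3285 and AOX1. The clock gene Pdp1, a transcription factor that activates Clk, had 2.51, 2.59 and 2.81 in P-P, against 3.36, 3.38 and 3.39 in R-R (-0.74 ± 0.11, adjusted p = 0.00113, and -0.74 without the pair, adjusted p = 0.113). It was 1 of 12 clock genes measured, and 0 others passed in limma. pirk, a negative regulator of the Imd immune pathway, had 1.25, 0.70 and 1.05 in P-P, against 2.80, 1.59 and 2.96 in R-R. Its difference depended on the pair, at -1.45 ± 0.30 with all arrays (adjusted p = 0.0182) and -0.59 without (adjusted p = 0.999), and it was the only one called of 51 immune genes. CG34040 was also smaller without it, at -1.79 with all arrays (adjusted p = 0.0182) and -1.05 without (adjusted p = 0.958). snRNA:U1:95Cc, a copy of the U1 spliceosomal RNA, differed by -1.5 (adjusted p = 0.043), and since U1 genes are near-identical copies the signal cannot be tied to this one. Its call ended whichever single array of the 6 was left out.

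The largest rises were in cuticle and chitin genes, and most of them shrank without replicates 1 and 3 of R-R. Of 138 measured, 11 rose and 0 fell in limma, with a list median of 0.05, where 0.235 percent of all probe sets rose. Vajk2 had 5.55, 4.87 and 5.0 in P-P, against 0.83, 3.84 and 1.11 in R-R. Replicate 2 of R-R lay nearer to P-P than to the other R-R arrays, and the difference of 3.21 ± 0.59 (adjusted p = 0.00733) was 1.30 without the pair (95% interval -0.08 to 2.68). Cpr92F, for a chitin-binding cuticle protein, had 6.48, 6.38 and 6.54 in P-P, against 2.96, 5.81 and 3.04 in R-R (2.53 ± 0.44, adjusted p = 0.0041, and 0.66 without the pair, interval -0.08 to 1.39). Cpr97Eb (2.34), Cpr49Ae (2.09), the chitin-binding Gasp (1.98), the adult cuticle protein gene Acp1 (1.85) and Cpr100A (1.71) passed with all arrays, at adjusted p of 0.0085 to 0.0377. Without the pair they stood at 0.43 to 0.88, each with an interval that includes 0.

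The other 4 called cuticle genes, named after their values were seen, were the chitin deacetylase gene serp (1.45), obst-B (1.08), the chitin synthase gene kkv (0.93) and Cpr65Au (0.83). Of these kkv differed as much without the pair (0.92, adjusted p = 0.153), with 1.25, 1.57 and 0.99 in P-P, against 0.30, 0.35 and 0.37 in R-R. Without the pair 0 cuticle genes rose in limma and 1 fell, obst-F, which read 2.07 on replicate 2 of R-R and 0.62 and 0.89 on replicates 1 and 3 (adjusted p = 0.0379, and 0.379 with all arrays).

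ple, which encodes the tyrosine hydroxylase that starts dopamine synthesis and cuticle tanning, had 5.15, 5.54 and 5.22 in P-P, against 2.83, 4.52 and 2.74 in R-R. It rose by 1.94 ± 0.31 (adjusted p = 0.00142), and stood at 0.78 without the pair (adjusted p = 0.812). It was the only one called of 22 tanning and pigmentation genes and of 25 amino acid metabolism genes. The storage protein gene Lsp2 had 6.44, 7.0 and 7.15 in P-P, against 4.20, 5.68 and 3.53 in R-R (2.39 ± 0.37, adjusted p = 0.00119, and 1.18, adjusted p = 0.666, without the pair). Of 3 measured storage genes it alone was called. CG6788 (3.17 ± 0.60) and the neuropeptide-like precursor gene Nplp3 (1.76 ± 0.30) also rose. Replicate 2 of R-R stood at 3.73 and 7.45, and replicates 1 and 3 at 1.69 and 1.47 and at 5.42 and 6.18. Without the pair the differences were 1.74 and 0.66. For CG6788 the P-P arrays (5.88, 5.38 and 5.14) lay above the 12 other poor-raised arrays, which reached 5.09, while the 12 other rich-raised arrays reached 5.36. The flight muscle troponin gene TpnC4, 1 of 20 muscle genes and the only one called, had 4.24 to 4.41 in P-P, against 2.46, 3.94 and 3.37 in R-R (1.09, adjusted p = 0.0438, and 0.41, adjusted p = 0.999, without the pair).

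On 20 of the 36 risen probe sets replicates 1 and 3 of R-R both lay below all 24 arrays of the other groups, against 0.745 percent of all probe sets, called or not. Replicate 2 lay below the 24 on 6 of the 36. Risen and fallen probe sets were called through these same R-R arrays, so shares above those of all probe sets were partly fixed in advance. In the other direction, replicates 1 and 3 both lay above all 24 on 6 of the 29 falls (0.516 percent of all probe sets), among them Apoltp, CG8620, pirk and Rab9Db, and replicate 2 lay above the 24 on 5. For Vajk2 the 12 other rich-raised arrays ran from 2.61 to 5.27 and the 12 other poor-raised arrays from 2.44 to 5.39, so R-R replicates 1 and 3 (0.83 and 1.11) lay outside either range and replicate 2 and 2 of the 3 P-P arrays inside. For Lsp2 the lowest of those 24 arrays read 5.4.

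**Figure D3:**
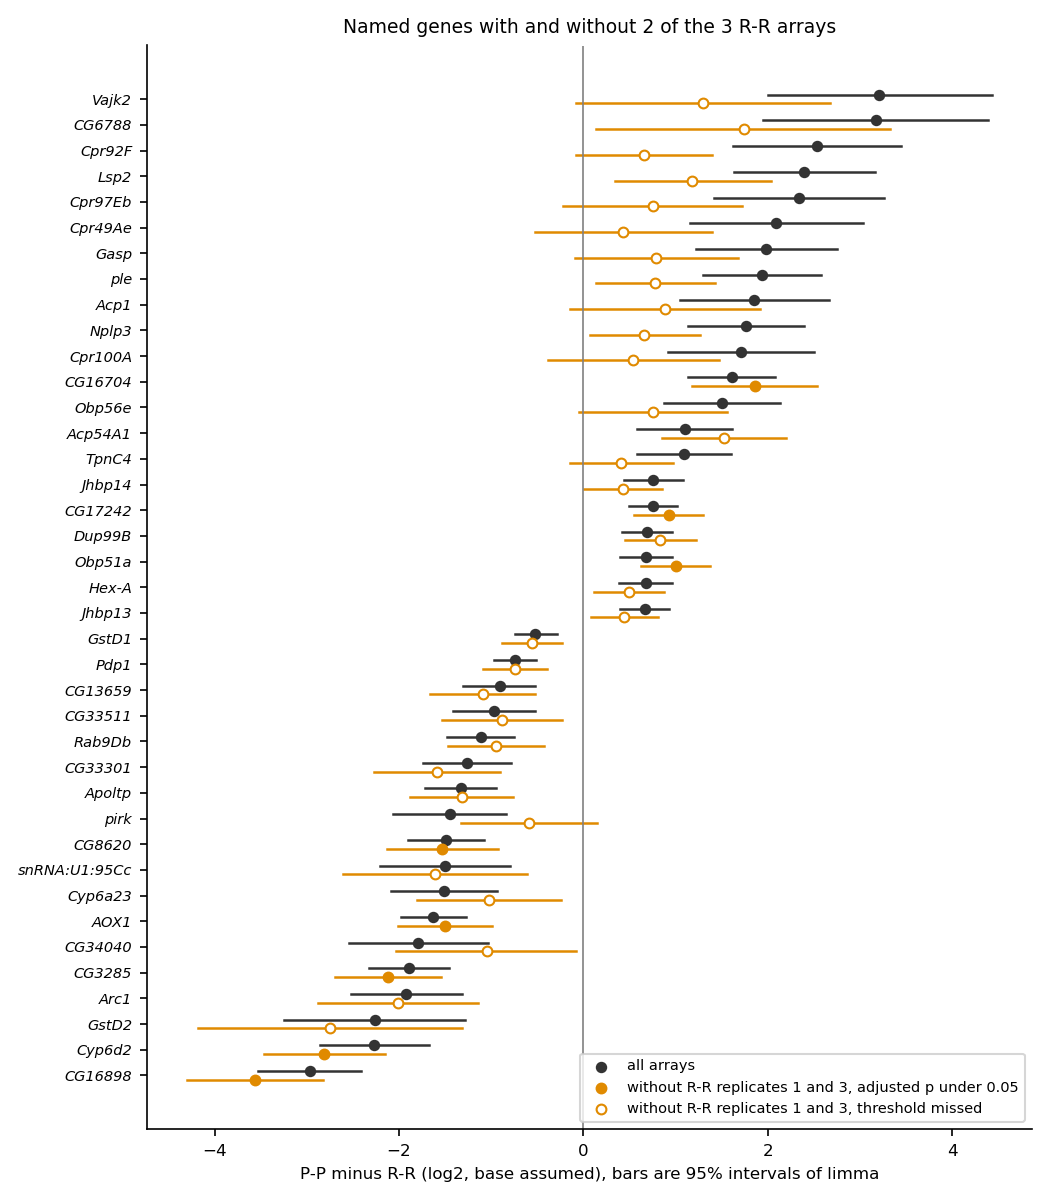
P-P minus R-R for the 39 named genes with all arrays (dark) and without replicates 1 and 3 of R-R (orange, filled where adjusted p stays under 0.05); the x axis is the difference on an assumed log2 scale and bars are 95% intervals of limma. Most falls keep their size, as AOX1 at -1.63 and -1.5, while cuticle genes move toward 0, as Vajk2 at 3.21 and 1.30.

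The 3 of the 36 rises that also passed with replicate 2 as the only R-R array were genes in which that array was the lowest of the R-R arrays and lay below all 24 arrays of the other groups. CG16704, of the Kunitz-type protease inhibitor family, had 6.09, 5.72 and 5.88 in P-P, against 4.56, 4.04 and 4.27 in R-R. The R-R arrays lay together, with replicate 2 lowest, and CG16704 rose by 1.61 ± 0.23 (adjusted p = 0.000374), and by 1.86 ± 0.33 without the pair (adjusted p = 0.0193). CG17242 had 7.28, 7.26 and 7.47 in P-P, against 6.58, 6.41 and 6.74 in R-R (0.76 ± 0.13, adjusted p = 0.0029, and 0.93 ± 0.18, adjusted p = 0.0379, without the pair). Obp51a, an odorant-binding protein gene counted here among seminal fluid genes, had 8.56, 8.66 and 8.94 in P-P, against 8.18, 7.72 and 8.23 in R-R (0.68 ± 0.14, adjusted p = 0.0167, and 1.00 ± 0.18, adjusted p = 0.0198). Without replicate 2 of R-R, CG16704 stood at 1.48 ± 0.26 (adjusted p = 0.00198) and CG17242 at 0.68 ± 0.14 (adjusted p = 0.0146). The call of Obp51a ended without replicate 2 of R-R (0.51, adjusted p = 0.0952) and without replicate 3 of P-P (0.57, adjusted p = 0.135).

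With all arrays 0.235 percent of all probe sets rose and 0.189 percent fell. Of 63 accessory gland and seminal fluid genes 4 rose and 0 fell, with a list median of -0.09. Beside Obp51a they were Obp56e (1.5 ± 0.31, adjusted p = 0.017), Acp54A1 (1.10 ± 0.25, adjusted p = 0.0413) and Dup99B, whose peptide binds the sex peptide receptor of females (0.69 ± 0.13, adjusted p = 0.00995). Without the pair Obp56e stood at 0.76 (adjusted p = 0.999), while Acp54A1 (1.53, adjusted p = 0.0773) and Dup99B (0.83, adjusted p = 0.106) were larger but missed the threshold. Obp56e and Obp51a were also the 2 called of 47 odorant-binding protein genes. Of 28 carbohydrate genes Hex-A, for a hexokinase, was the only one called, at 0.68 ± 0.14 (adjusted p = 0.0168). The list median was 0.25 with all arrays and 0.12 without the pair. The median of 81 oxidative phosphorylation genes was 0.21 and 0.06, with 0 called in limma. The juvenile hormone-binding protein genes Jhbp13 (0.67, adjusted p = 0.0103) and Jhbp14 (0.76, adjusted p = 0.0167) were the called members of 37 ecdysone and juvenile hormone genes, and stood at 0.44 and 0.43 without the pair (adjusted p = 0.819 and 0.999).

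With all arrays 0 genes were called in limma among digestive proteases (26 measured), digestive carbohydrases and lipases (28), insulin, TOR and nutrient sensing (25), heat shock (16), testis (39), ovary and yolk (32), Malpighian tubule (23), phototransduction (17) and cytosolic ribosomal proteins (41). Over all probe sets 0.425 percent were called, a share at which lists of this size would hold few calls or none. The medians of these lists ran from -0.18 (Malpighian tubule) to 0.01. The insulin list had a median of -0.07. In the fit without the pair, 2 genes of these lists that had not passed before did so. Both read lowest on replicate 2 of R-R. The midgut protease gene Jon25Biii had 7.45, 7.72 and 7.69 in P-P, against 7.55, 6.29 and 7.31 in R-R (0.57, adjusted p = 0.47, with all arrays, and 1.33, adjusted p = 0.0379, without the pair), so that the groups overlapped. The tubule transporter gene Oatp58Db had 2.99, 3.36 and 3.83, against 3.05, 1.91 and 3.12 (0.70, adjusted p = 0.281, and 1.48, adjusted p = 0.012). Both were named after their values were seen.

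The comparison can be set beside own food in other generations, on 18 arrays that it does not use. There, the mean of poor minus rich over the F0 pair (P and R) and the 2 F2 pairs (R-R-P and R-R-R, P-R-P and P-R-R) was called for 71 lower and 62 higher probe sets (0.464 and 0.405 percent, together 0.869 percent). Of the 29 falls, 28 were negative there too and 21 were called lower, which is 72.4 percent of the falls and 29.6 percent of the 71. Of the 36 rises, 36 were positive and 9 were called higher, which is 25 percent of the rises and 14.5 percent of the 62. Over all probe sets 51.2 percent were negative and 48.8 percent positive. Only the estimate of spread is shared by the 2 comparisons. Without the 2 arrays with ovary transcripts, 20 falls and 8 rises were called there.

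Some falls were of like size on both sets of arrays: CG16898 differed by -2.97 in P-P against R-R and by -2.59 ± 0.16 in F0 and F2, AOX1 by -1.63 and -1.46 ± 0.10, GstD2 by -2.26 and -1.78 ± 0.28, and Arc1 by -1.92 and -1.55 ± 0.17. Other falls had smaller estimates in F0 and F2. CG3285 differed by -1.89 in P-P against R-R and by -1.12 ± 0.12 there, and Apoltp by -1.33 and -0.76 ± 0.11. CG8620 differed by -1.49 and -0.55 ± 0.12, and pirk by -1.45 and -0.50 ± 0.17. In the direct limma test described below, none of these gaps passed (adjusted p = 0.555 to 0.971). Among rises, CG16704 differed by 1.61 in P-P against R-R and by 1.02 ± 0.13 in F0 and F2 (adjusted p = 5.46e-05). Vajk2 differed by 3.21 and by 0.80 ± 0.34 (adjusted p = 0.46), Cpr92F by 2.53 and 0.48 ± 0.25 (adjusted p = 0.626) and Lsp2 by 2.39 and 0.52 ± 0.22 (adjusted p = 0.434). The median over the 29 falls was -1.15 in P-P against R-R and -0.63 in F0 and F2, and that over the 36 rises 1.07 and 0.46. Both medians were thus smaller in size on the other arrays. However, these falls and rises were called in P-P against R-R, a choice that favours large differences there. That choice alone can make the medians smaller elsewhere, so they cannot show whether the 2 comparisons differ in size.

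**Figure D4:**
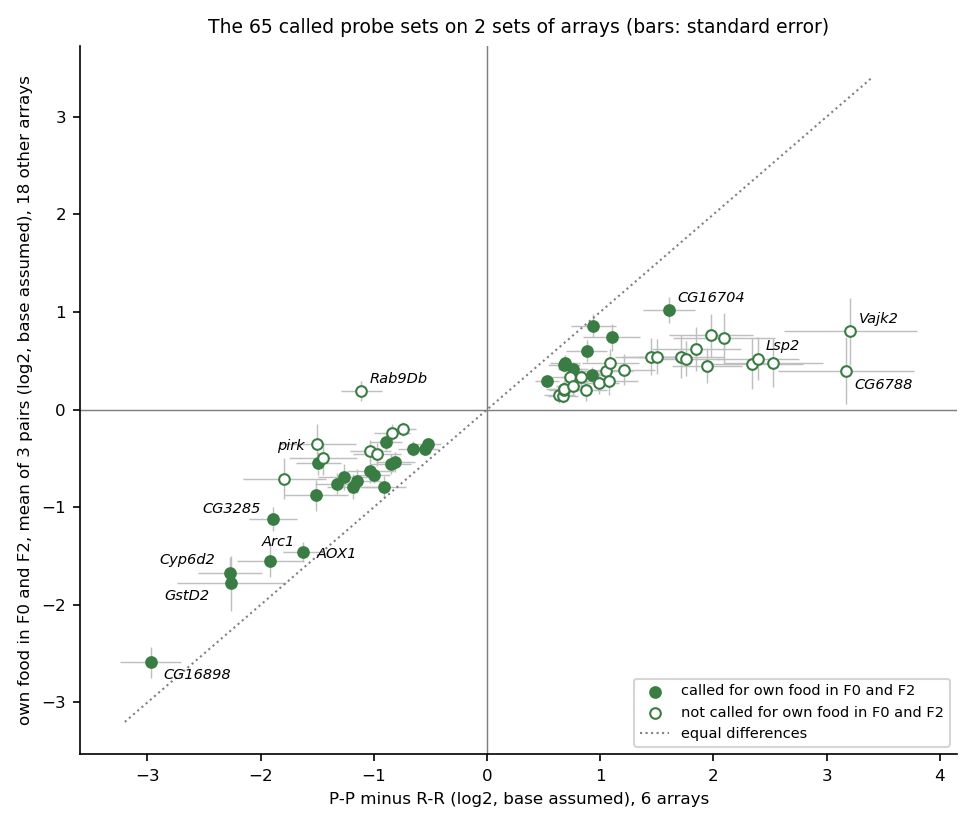
Each point is 1 of the 65 called probe sets, with P-P minus R-R on the x axis (6 arrays) and the mean own-food difference of the 3 pairs in F0 and F2 on the y axis (18 other arrays), both on an assumed log2 scale with standard errors; the dotted line marks equal differences. Some falls lie near the line (CG16898 at -2.97 and -2.59) and others nearer to 0 on the y axis (CG8620 at -1.49 and -0.55), as do cuticle genes (Vajk2 at 3.21 and 0.80), and Rab9Db lies in the upper left.

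Whether P-P against R-R differed more than own food in F0 and F2 was tested directly. In limma 1 of 15309 probe sets passed (0.00653 percent), with 740 at an unadjusted p under 0.05 against 765 by chance. That gene was Rab9Db, related to small GTPases of vesicle transport. It had 0.30, 0.79 and 0.40 in P-P, against 1.56, 1.45 and 1.82 in R-R, a fall of 1.11 ± 0.18 (adjusted p = 0.00142), where own food in F0 and F2 gave 0.19 ± 0.10. The difference between the contrasts was -1.30 ± 0.20 (adjusted p = 0.0135). In the 2 remaining F1 groups Rab9Db averaged 0.47 in P-R and 1.09 in R-P, so both groups with poor-raised parents were low. It averaged 0.79 to 1.21 in the F0 and F2 groups. Without replicates 1 and 3 of R-R the call of this difference ended at a similar size (-1.14 ± 0.27, adjusted p = 0.973), and it ended too without replicate 1 or 3 of P-P or replicate 1 or 3 of R-R alone, at -1.20 to -1.33. For Vajk2 the same difference was 2.42 ± 0.68 (adjusted p = 0.736) and for Lsp2 1.88 ± 0.43 (adjusted p = 0.555), so for these genes the excess over own food elsewhere did not pass.

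The difference between P-P and R-R is the sum of 2 averages over the 4 F1 groups, the effect of own food and that of parental food. The F1 groups with mixed histories, R-P and P-R, give the first minus the second on 6 arrays outside this comparison. R-P had rich-raised parents and poor own food, P-R the reverse. Of 15309 probe sets 29 were lower in R-P than in P-R and 0 higher in limma (0.189 and 0 percent, 1058 at an unadjusted p under 0.05), and 6 of those 29 were among the falls here, which is 20.7 percent of either list. CG16898 averaged 1.98 in R-P and 5.16 in P-R (-3.17 ± 0.27, adjusted p = 1.19e-07), close to its P-P mean of 2.57 and its R-R mean of 5.54. AOX1 averaged 3.45 in R-P and 5.34 in P-R (-1.89 ± 0.17, adjusted p = 2.28e-07). Cyp6d2 differed by -1.54 (adjusted p = 0.0198), CG3285 by -1.12 (adjusted p = 0.0212) and Cyp6a23 by -1.31 (adjusted p = 0.0419). The sixth, CG13309, stands outside the naming rule. In limma CG13309 fell by 1.00 in P-P against R-R (adjusted p = 0.000374) and differed by -0.91 between R-P and P-R (adjusted p = 0.00454). Replicate 2 of R-P carries ovary transcripts. Without it and replicate 2 of P-R-R 3 were called, CG16898 (-3.26, adjusted p = 1.29e-06), AOX1 (-1.88, adjusted p = 5.32e-06) and CG13309 (-0.91, adjusted p = 0.0276).

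Of the 36 rises, 0 were called between R-P and P-R in limma, with a median difference of 0.20, or 0.14 without the 2 arrays with ovary transcripts, against -0.63 and -0.60 for the falls. The difference was positive for 25 of the 36 rises and negative for 28 of the 29 falls. Among the rises that went the other way, Jhbp13 averaged 7.50 in R-P and 8.02 in P-R. Vajk2 averaged 4.85 in R-P and 4.63 in P-R (difference 0.22 ± 0.59), Cpr92F 6.32 and 5.95 (0.37 ± 0.44) and Lsp2 6.95 and 6.65 (0.30 ± 0.37). Either mixed group lay near P-P (5.14, 6.47 and 6.86) and well above the R-R means (1.93, 3.94 and 4.47). Those means include the low replicates 1 and 3, while replicate 2 of R-R read 3.84, 5.81 and 5.68. The rich-only groups averaged 4.48, 6.10 and 6.84 (R) and 3.11, 5.35 and 6.82 (R-R-R). CG16704 was 5.38 in R-P and 4.85 in P-R (0.53 ± 0.23, adjusted p = 0.638), between P-P at 5.90 and R-R at 4.29. Split into its parts, the median fall was -0.94 for own food and -0.20 for parental food, and the median rise 0.61 and 0.55. These parts contain the R-R arrays.

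**Figure D5:**
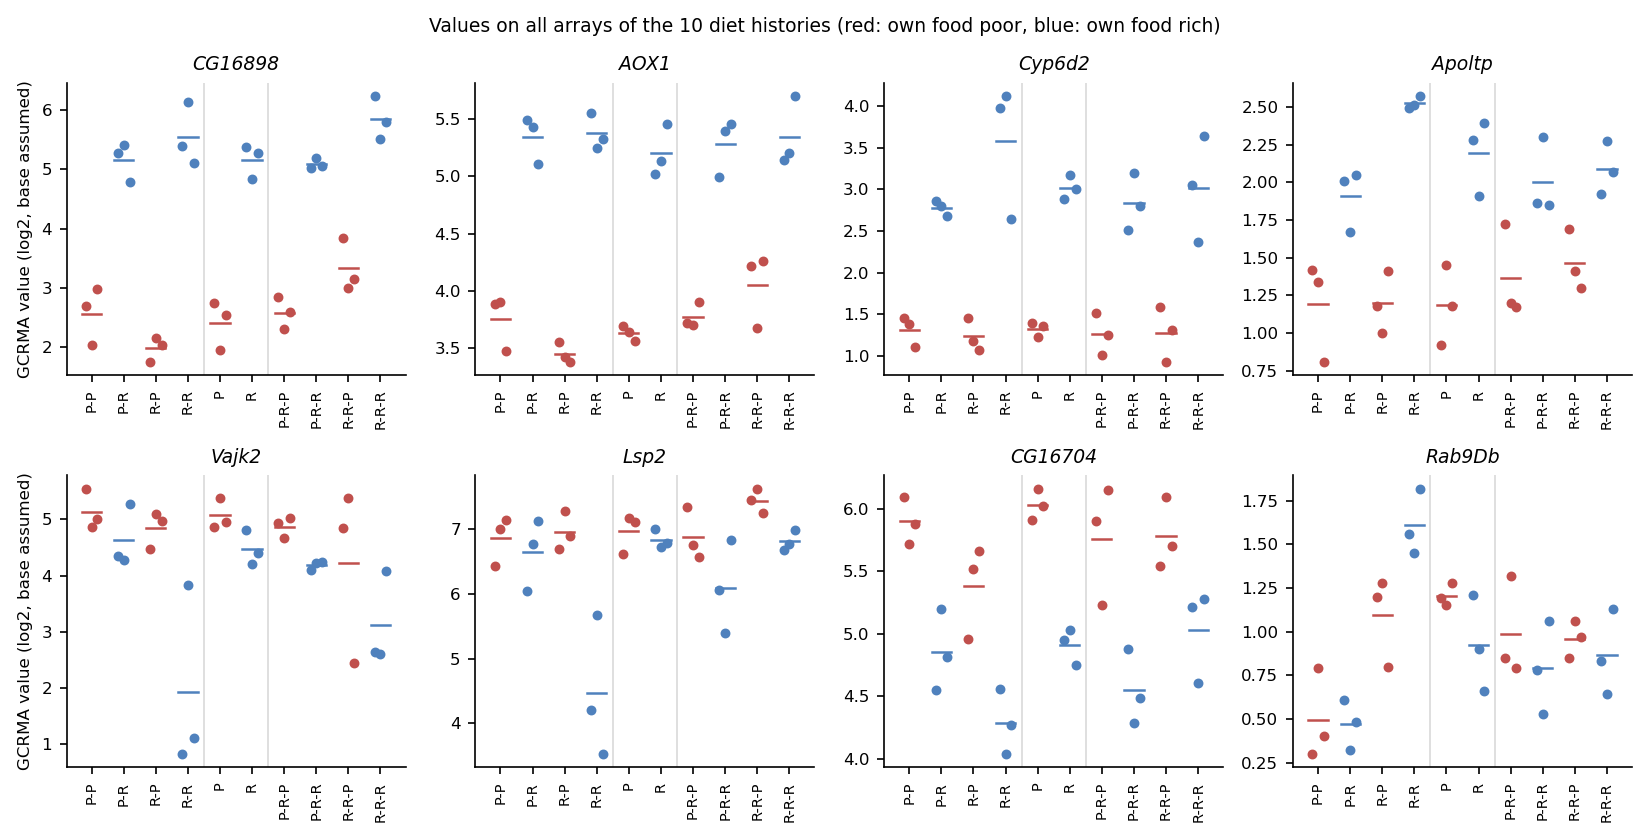
Deposited values of 8 genes on all 30 arrays (points) with group means (lines), by diet history on the x axis with own food as the last letter, in red for own food poor and blue for own food rich; the y axes are on an assumed log2 scale. CG16898, AOX1 and Cyp6d2 are low in every poor-raised group, Vajk2 and Lsp2 are low on R-R replicates 1 and 3, and Rab9Db is low in P-P (mean 0.50) and P-R (0.47).

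P-P was also set against the 2 other groups with only rich food in their history, R and R-R-R, which are of other generations. In limma 8 probe sets rose and 39 fell (0.0523 and 0.255 percent). CG16898 differed by -2.93 ± 0.24, Cyp6d2 by -1.71 ± 0.25, AOX1 by -1.53 ± 0.15 and Apoltp by -0.95 ± 0.16, and each was called. Vajk2 differed by 1.35 ± 0.51, Cpr92F by 0.74 ± 0.38 and ple by 0.78 ± 0.27, and none of these passed. Lsp2 differed by 0.04 ± 0.32 (adjusted p = 0.998) and pirk by -0.28 ± 0.26, while CG16704 differed by 0.92 ± 0.20 (adjusted p = 0.0344).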

How the data were processed

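The 10 diet histories with 3 arrays each were deposited as 1 table of values. The authors deposited GCRMA values, taken here as log2 values, with GCRMA named per the submitters' processing notes; no source used here gives its version, the log base or the genome build, so no coordinates are printed. Of 15309 probe sets 13441 carried 1 gene symbol in GEO's platform annotation, 555 several and 1313 none. The number of arrays limits the precision.

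With limma 3.58.1 (R 4.3.3), 1 mean per diet history was fitted to the 30 arrays together, so that all groups share 1 estimate of spread, and p-values were adjusted by Benjamini-Hochberg over all probe sets, with a threshold of 0.05. The contrasts were P-P minus R-R, own food in F0 and F2, R-P minus P-R, and the first minus the second of these. Named genes were the 12 largest rises and the 12 largest falls that were called without overlap, the 5 largest each way also called without R-R replicates 1 and 3, up to 4 called members of each list, and up to 5 each way from the contrast against own food; genes outside this rule are said to be so or stand as values of a list. The members and gene lists were chosen with earlier results of these data known. Same-numbered arrays of P-P and R-R did not deviate together (r of 0.00943, -0.0304 and 0.0522), so numbers were not used as pairs. Alternatives were quantile normalization, centring, a filter on dim probe sets, trend and robust eBayes, a replicate block, the 6 arrays alone, R and R-R-R in place of R-R, and leaving out arrays. Promoter motifs were not analysed here.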

Additional observations from a re-analysis of the deposited data

Results flagged for a closer look

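Rab9Db was the 1 probe set whose difference between P-P and R-R departed from the mean own-food difference in F0 and F2 in a test of that difference itself, at -1.30 ± 0.20 (limma, adjusted p = 0.0135). It was lower on all 3 P-P arrays (0.30, 0.79 and 0.40) than on all 3 R-R arrays (1.56, 1.45 and 1.82). Without R-R replicates 1 and 3 the difference between contrasts was -1.14 ± 0.27 (adjusted p = 0.973). Its levels are low on all arrays of the series, with group means of 0.47 to 1.61.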

How the results depend on the processing

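Against 65 calls in P-P minus R-R, 13 were made without R-R replicates 1 and 3 (736 at an unadjusted p under 0.05) and 26 with only the 6 arrays (4 higher and 22 lower). Leaving out 1 array gave 22 (without R-R replicate 1) to 117 (without R-R replicate 2). Quantile normalization gave 76, centring 90, the dim filter 88, leaving out the 2 arrays with ovary transcripts 71, trend and robust eBayes 60 and R with R-R-R 47. The replicate block gave 68 (34 higher and 34 lower), and 134, 32 and 1 for the contrasts below; the numbers do not pair the samples. Own food in F0 and F2 had 133 calls, and 40 to 97 without 1 replicate number. R-P minus P-R had 29, with 3 without the 2 arrays with ovary transcripts and 3 to 26 without 1 array. The contrast of P-P minus R-R against own food had 1, with 0 without R-R replicates 1 and 3 (575 at an unadjusted p under 0.05 in limma) and 0 to 17 without 1 array. The 39 named genes kept their direction in these alternatives; 8 stayed called without R-R replicates 1 and 3, 15 with only the 6 arrays, 16 against R and R-R-R, and 33 to 39 in the rest that keep all 6 arrays. The cause of these moves was not tested. Where only arrays of P-P or R-R were left out, the direction was fixed in advance, since the groups did not overlap. Values near the low end of the array's range are close to background, which limits genes such as Rab9Db. Promoter motifs, planned as an analysis, were not run.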
